A study of Mus musculus with 12 samples.

Results

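Well-known long non-coding RNA (lncRNA) genes other than *Firre*, 8 in number, were read across CLPs of the *Firre* study: *Malat1*, *Neat1*, *Gas5*, *Snhg1*, *Snhg12*, *Kcnq1ot1*, *Meg3*, and *Dleu2*. They were chosen by name and looked up by symbol among the 47643 genes of the TPM table (a length-normalized measure of transcripts, in which the values of every library add up to one total). A gene of the table could be matched for 5 of the 8, and *Snhg1*, *Kcnq1ot1*, and *Dleu2* are not analysed here. Of the 5, *Malat1*, *Neat1*, *Gas5*, and *Snhg12* had a mean of at least 1 TPM over all libraries and entered the tests, and *Meg3* did not.

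CLPs (common lymphoid progenitors, sorted from bone marrow as Lin-, Sca1 low, cKit low, IL7Rα+ cells) came from 4 WT, 4 ∆*Firre*, and 4 *Firre* rescue mice, all adult males, and gave 1 poly(A)+ RNA-seq library per mouse. ∆*Firre* mice lack the *Firre* gene body and promoter through a germline deletion made with Cre, which was then bred out. *Firre* rescue mice carry the same deletion together with a tet-responsive *Firre* cDNA transgene and the CAG-rtTA3 activator, and were fed doxycycline (dox). WT and ∆*Firre* mice had neither transgene nor dox, so transgene, rtTA3, and dox cannot be told apart in comparisons of *Firre* rescue with them. The *Firre* rescue libraries also carry a range of library numbers of their own, which cannot be told apart from genotype.

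LncRNAs act in several ways. *Malat1* is a nuclear RNA concentrated in speckles, the domains that store splicing factors, and its end is protected by a triple helix in place of a poly(A) tail. *Neat1* is the scaffold of paraspeckles, nuclear bodies that form around its long isoform and hold RNA-binding proteins of the NONO and SFPQ family. *Gas5* and *Snhg12* are host genes whose introns are processed into small nucleolar RNAs (snoRNAs), while their spliced exons are short-lived in many cells because translation exposes them to nonsense-mediated decay. *Meg3* is expressed from the maternal copy of an imprinted cluster and is known in blood for its high level in long-term stem cells.

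*Malat1* (ENSMUSG00000092341.2) and *Neat1* (ENSMUSG00000092274.2) are neighbors on chromosome 19 of GRCm38, at chr19:5795690-5802672 and chr19:5824708-5845480, with 22035 bases between them. *Gas5* (ENSMUSG00000053332.13) lies at chr1:161034601-161038539, *Snhg12* (ENSMUSG00000086290.8) at chr4:132308678-132311024, and *Meg3* (ENSMUSG00000021268.17) at chr12:109540996-109571729. RefSeq types all 5 as lncRNA. The gene length behind the TPM values, recovered from their spacing, was 6983 bases for *Malat1* and 20771 bases for *Neat1*. The *Neat1* value does not separate the long isoform from the short polyadenylated isoform. Poly(A)+ libraries can miss RNA without a poly(A) tail, such as *Malat1*, and how much was missed was not measured. Levels, ranks, and the ratio of *Malat1* and *Neat1* below are therefore those in poly(A)+ libraries only.

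The starts of the genes are shown because snoRNA host genes are known for a start within a run of pyrimidines. Each window below is RefSeq sequence of GRCm38.p6, 5′ to 3′ on the strand of the gene, from 50 bases before the annotated start to 20 bases from it on. Capitals mark TATATA, which reads the same on both strands, and the longest run of at least 6 C or T bases reaching within 10 bases of the start on the strand of the gene. *Gas5* and *Meg3* have several annotated starts; both are shown for *Gas5* and the upstream one for *Meg3*. *Neat1* has no window here.
Malat1, chr19:5802653-5802722, minus strand: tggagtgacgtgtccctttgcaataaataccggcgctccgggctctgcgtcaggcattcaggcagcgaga
Gas5 upstream start, chr1:161034551-161034620, plus strand: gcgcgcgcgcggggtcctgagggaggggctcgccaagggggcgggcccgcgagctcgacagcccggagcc
Gas5 downstream start, chr1:161035116-161035185, plus strand: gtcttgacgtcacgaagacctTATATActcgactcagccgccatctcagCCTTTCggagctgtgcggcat
Snhg12, chr4:132308628-132308697, plus strand: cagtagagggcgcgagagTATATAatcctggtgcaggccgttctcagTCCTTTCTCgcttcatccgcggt
Meg3, chr12:109540946-109541015, plus strand: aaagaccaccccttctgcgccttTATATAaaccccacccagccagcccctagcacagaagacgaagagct
TATATA was found in the windows of *Gas5* (downstream start), *Snhg12*, and *Meg3* (upstream start, not the downstream one), and in 1.57% of the windows of all 32851 annotated starts. A pyrimidine run marked the *Gas5* downstream start with 6 bases and the *Snhg12* start with 9 bases. Runs of at least these lengths were present at 29.2% and 9.55% of all starts. In the *Malat1* window TATATA was not found, nor a run of at least 6 pyrimidines reaching within 10 bases of the start. The motifs were chosen after the sequences had been seen, and a match is a description only.

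*Firre* itself, the check of the labels, was at 28.4 ± 3.05 TPM in WT, listed at 0 in all 4 ∆*Firre* libraries, and at 108 ± 56.1 TPM in *Firre* rescue (SD, n = 4 each). Between 10990431 and 18174782 reads were recovered per WT or ∆*Firre* library and between 25781864 and 32573009 per *Firre* rescue library. All 12 CLP markers were expressed, with a summed level of 7061 to 9814 TPM in WT, 8174 to 8501 TPM in ∆*Firre*, and 9576 to 10506 TPM in *Firre* rescue.

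By level, *Gas5* was the highest of the 5, with a mean of 418 TPM over the 12 libraries, and held rank 2 among 306 tested genes that RefSeq types as lncRNA. *Malat1* followed at 189 TPM and rank 5, *Snhg12* at 93.6 TPM and rank 12, and *Neat1* at 14.6 TPM and rank 63. The order *Gas5*, *Malat1*, *Snhg12*, *Neat1*, *Meg3* was the same in the means of each group. The ranges of *Malat1* (62.2 to 111 TPM in 3 libraries) and *Snhg12* (69.3 to 101 TPM) overlapped in *Firre* rescue, so that these neighbors in the order did not differ beyond their spread there. WT *Gas5* exceeded the level of 98.1% of the genes tested, *Malat1* that of 95.8%, *Snhg12* that of 86.4%, and *Neat1* that of 50.1%.

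**Figure D1:**
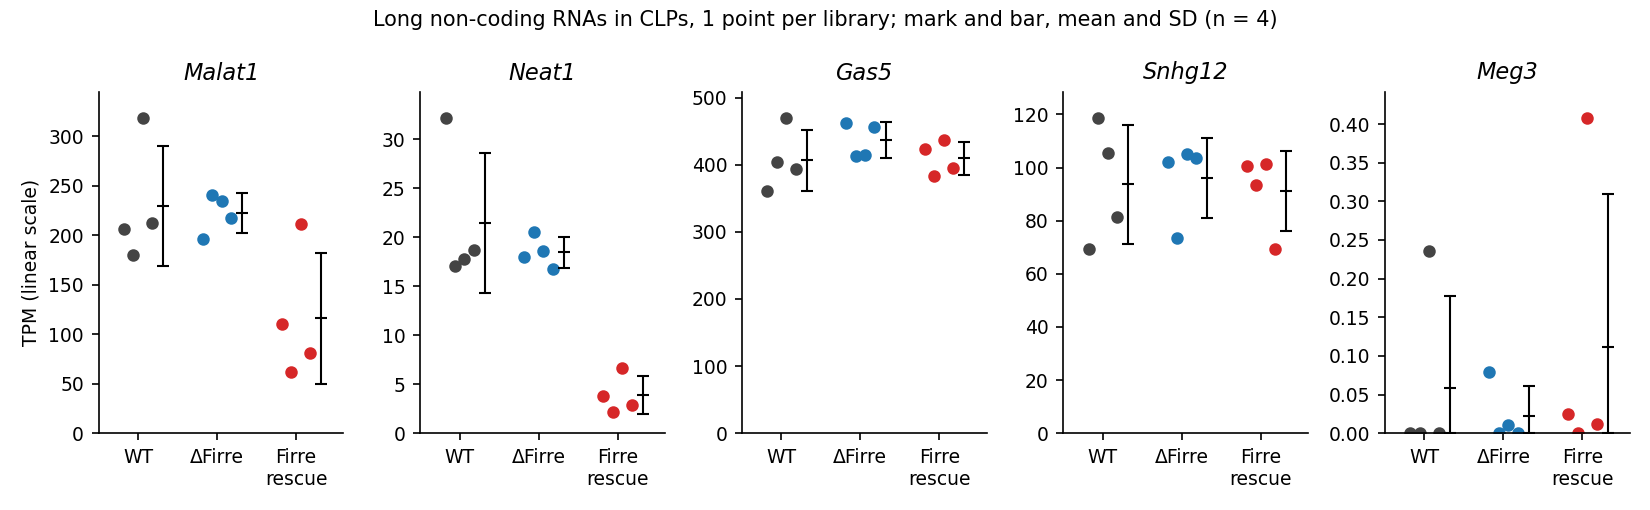
TPM of each matched lncRNA (vertical axis, linear, own scale per gene) in the libraries of each group; points are libraries in order of replicate number, and the mark with bar gives the mean and SD (n = 4), with the lower end of a bar stopped at 0. All *Firre* rescue libraries lie below 7 TPM for *Neat1*, while *Gas5* and *Snhg12* overlap in the 3 groups.

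*Neat1*, the paraspeckle scaffold, was the member with the largest difference between groups. It was at 32.2, 17.1, 17.8, and 18.8 TPM in WT mice 6, 8, 10, and 11. In ∆*Firre* mice 8, 9, 11, and 12 it was at 18.04, 20.6, 18.6, and 16.7 TPM. In *Firre* rescue mice 1 to 4 it was at 3.85, 2.20, 6.68, and 2.92 TPM. WT and ∆*Firre* overlapped, with WT mouse 6 above all others, and every *Firre* rescue library was below every library of both other groups. The *Neat1* values of *Firre* rescue rested on 509 to 1469 recovered reads per library, against 1250 to 3176 in the other groups.

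In log2(TPM + 1), *Neat1* fell by 2.06 in *Firre* rescue against ∆*Firre* (standard error 0.27, limma adjusted p = 0.000488), from a mean of 18.5 ± 1.58 to 3.91 ± 1.97 TPM (SD, n = 4 each), a mean 78.8% lower. Against WT, at 21.5 ± 7.17 TPM, *Neat1* fell by 2.22 (standard error 0.27, limma adjusted p = 0.000395). Between ∆*Firre* and WT the difference was -0.16 (95% interval -0.75 to 0.42, limma adjusted p = 1). The comparisons of *Firre* rescue with ∆*Firre* and with WT share the *Firre* rescue libraries. Because 1 is added before the logarithm, the fall of a low gene is understated: with 0.1 added in its place, *Neat1* was at -2.33 and -2.49.

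*Malat1* was at 207, 181, 318, and 213 TPM in WT mice 6, 8, 10, and 11. In ∆*Firre* mice 8, 9, 11, and 12 it was at 196, 241, 235, and 218 TPM. In *Firre* rescue mice 1 to 4 it was at 111, 62.2, 211, and 80.6 TPM. *Firre* rescue mice 1, 2, and 4 were below every WT and ∆*Firre* library, and mouse 3 lay within their range. In log2(TPM + 1), *Malat1* fell by 1.08 in *Firre* rescue against ∆*Firre* (standard error 0.30, limma adjusted p = 0.024), from a mean of 223 ± 20.1 to 116 ± 66.4 TPM (SD, n = 4 each). Against WT, at 230 ± 60.8 TPM, *Malat1* fell by 1.10 (standard error 0.30, limma adjusted p = 0.025). Between ∆*Firre* and WT the difference was -0.02 (95% interval -0.66 to 0.62, limma adjusted p = 1). Without *Firre* rescue mouse 3 the difference was -1.42 against ∆*Firre* and -1.44 against WT.

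*Gas5*, host of several box C/D snoRNAs, had the smallest SD relative to its mean of all members within each group. It was at 361, 403, 469, and 394 TPM in WT mice 6, 8, 10, and 11. In ∆*Firre* mice 8, 9, 11, and 12 it was at 463, 412, 415, and 456 TPM, and in *Firre* rescue mice 1 to 4 at 424, 384, 436, and 395 TPM. The groups overlapped in every comparison. The difference in log2(TPM + 1) was 0.11 between ∆*Firre* and WT (95% interval -0.08 to 0.29, limma adjusted p = 0.994). Between *Firre* rescue and ∆*Firre* it was -0.09 (95% interval -0.28 to 0.10, limma adjusted p = 0.497). For *Firre* rescue and WT it was 0.01 (95% interval -0.17 to 0.20, limma adjusted p = 0.928). With the median ratio between libraries the difference between *Firre* rescue and WT was 0.21, with limma-voom 0.20, and with the correction for exon GC content 0.16, and it was not called in any of them.

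*Snhg12*, host of snoRNAs of both the box C/D and the H/ACA class, was at 69.3, 119, 105, and 81.3 TPM in WT mice 6, 8, 10, and 11. In ∆*Firre* mice 8, 9, 11, and 12 it was at 102, 73.6, 105, and 103 TPM. In *Firre* rescue mice 1 to 4 it was at 101, 93.3, 101, and 69.3 TPM. The groups overlapped, with 1 low library in each of ∆*Firre* and *Firre* rescue. The difference was 0.05 between ∆*Firre* and WT (95% interval -0.34 to 0.45), -0.08 between *Firre* rescue and ∆*Firre* (95% interval -0.47 to 0.32), and -0.02 between *Firre* rescue and WT (95% interval -0.42 to 0.37), with limma adjusted p of 1, 0.804, and 0.946. The intervals are wider than those of *Gas5*, and for neither gene does a missed threshold show equal levels.

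*Meg3* was close to the limit of detection. It had 0, 0, 25, and 0 recovered reads in WT mice 6, 8, 10, and 11, then 7, 0, 1, and 0 in ∆*Firre* mice 8, 9, 11, and 12. In *Firre* rescue mice 1 to 4 it had 4, 0, 78, and 2 reads. The highest value, of *Firre* rescue mouse 3, was 0.408 TPM (61.7 to 97.3 reads, exact Poisson 95% interval for counting error), followed by 0.236 TPM in WT mouse 10. In a library with 0 reads, 3 reads would have been 0.0149 to 0.0472 TPM. The mean log2(TPM + 1) differed by -0.04 between ∆*Firre* and WT (two-sided exact permutation p = 1), by 0.10 between *Firre* rescue and ∆*Firre* (exact permutation p = 0.543), and by 0.06 between *Firre* rescue and WT (exact permutation p = 0.543). No p below 0.0286 is possible with 4 libraries per group. Without *Firre* rescue mouse 3 the differences of *Firre* rescue turned to -0.01 and -0.06, and without WT mouse 10 that between ∆*Firre* and WT turned to 0.03.

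Of the 4 tested members, 0 were called between ∆*Firre* and WT with limma at an adjusted p of 0.1 or less, where 3 of all 14479 genes tested were called (0.0207%). At an unadjusted p under 0.05 the number was also 0 of 4, and limma-voom on the recovered reads called 0. *Firre* itself was among the 3 genes called. The paper, with DESeq2 on counts at an FDR of 0.1, reported many more genes in this comparison, so the 3 are a count of this fit only. Between *Firre* rescue and ∆*Firre*, 2 of 4 were called and both were lower, where 27.9% of all genes were called and 19.3% were called lower and 8.58% higher. Between *Firre* rescue and WT, 2 of 4 were called and both were lower, where 24.3% were called and 19.4% were called lower and 4.82% higher. *Neat1* alone of the 4 had every *Firre* rescue library below every ∆*Firre* library, as had 15.6% of all genes, and below every WT library, as had 14.5%. The median of all genes tested was -0.16 between *Firre* rescue and ∆*Firre* and -0.21 between *Firre* rescue and WT, so that *Gas5* and *Snhg12* lay above the median gene and *Malat1* and *Neat1* below it. Rescaling by the median ratio between libraries moved these medians to -0.05 and -0.03 and the calls against ∆*Firre* from 1242 higher and 2801 lower to 1901 higher and 1862 lower. Against WT it moved the calls from 698 higher and 2814 lower to 1305 higher and 1244 lower. The rescaling left *Malat1* at -0.96 and *Neat1* at -1.97 against ∆*Firre*, both called, and turned *Gas5* and *Snhg12* to 0.03 and 0.04.

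**Figure D2:**
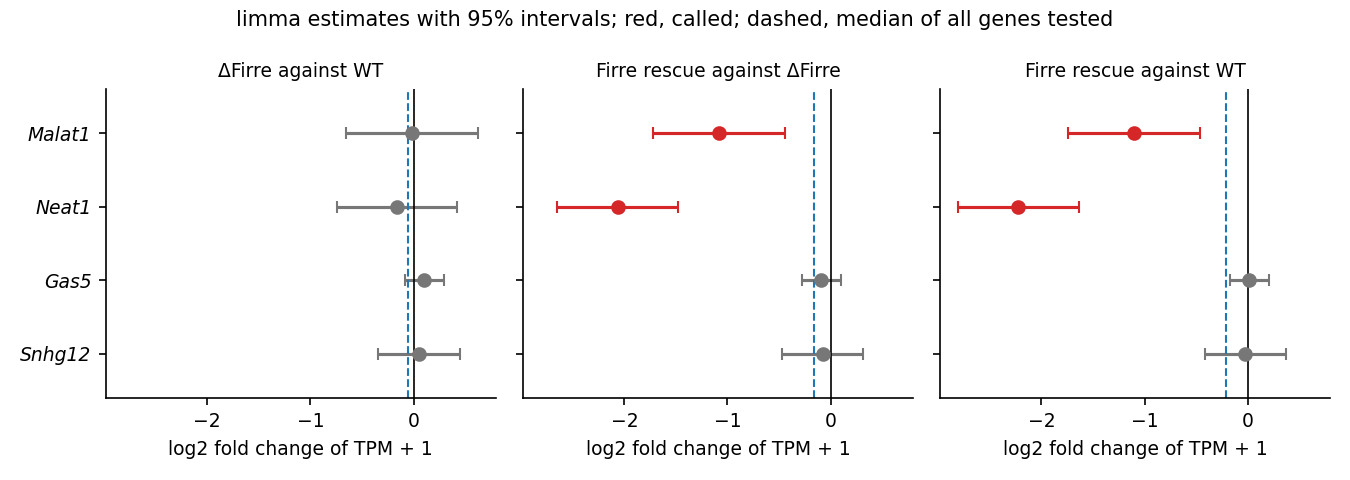
Difference in log2(TPM + 1) from limma (horizontal axis) with its 95% interval for the 4 tested lncRNAs in each comparison; red points are called, and the dashed line is the median of all genes tested. *Malat1* and *Neat1* lie left of 0 with their whole intervals in both comparisons of *Firre* rescue, and all 4 intervals include 0 between ∆*Firre* and WT.

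Other measures differed between the groups as well. Ribosomal protein genes made up 16.6% to 19.4% of TPM in *Firre* rescue libraries, while WT libraries gave 11.3% to 12.3% and ∆*Firre* libraries 10.8% to 12.8%. The fold change of a gene between *Firre* rescue and ∆*Firre* rose with its exon GC content (Spearman rho 0.448 across 13086 genes, which are not independent replicates). The same rho was 0.320 between *Firre* rescue and WT and -0.361 between ∆*Firre* and WT, so that ∆*Firre* libraries also differed from WT in this relation. Exon GC was 42.5% in *Malat1*, 43.6% in *Gas5*, 47.3% in *Neat1*, and 47.5% in *Snhg12*, against a median of 49.5%. With each library corrected for exon GC content, *Malat1* fell by 0.84 against ∆*Firre* (limma adjusted p = 0.0865) and *Neat1* fell by 1.93 (limma adjusted p = 0.000894).

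Markers of other cells moved as well. The 6 basophil and mast cell markers summed to 64.0 to 142 TPM in *Firre* rescue, 1052 to 9045 TPM in WT, and 2918 to 4291 TPM in ∆*Firre*. The 6 plasma cell markers summed to 306 to 528 TPM in *Firre* rescue, 872 to 1636 TPM in WT, and 1614 to 3412 TPM in ∆*Firre*. The 5 natural killer cell markers (228 to 283 TPM in *Firre* rescue, 331 to 691 TPM in WT, 393 to 618 TPM in ∆*Firre*) and the 6 markers of type 2 innate lymphoid cells (21.5 to 39.1, 45.5 to 81.0, and 50.4 to 66.9 TPM in the same order, with *Areg* at 0 in every library) were also lower in *Firre* rescue. *Il5* and *Il13*, also among these 6, had means under 1 TPM, so the sum rests on the 3 others. The 8 B lineage markers were higher, at 958 to 1482 TPM against 268 to 496 TPM in WT and 347 to 444 TPM in ∆*Firre*. T cell, eosinophil, neutrophil and monocyte, plasmacytoid dendritic cell, and erythroid markers overlapped between the groups. In bulk samples, fewer cells of a type and less RNA per cell cannot be told apart. The part of these markers, of the ribosomal protein share, and of the library range in the lower *Malat1* and *Neat1* levels was not tested. In WT mouse 6, where *Neat1* was highest, the basophil and mast cell markers were also highest at 9045 TPM. The other groups did not share this match, which was noticed after the values had been seen. *Firre* rescue mouse 2 had the highest sum of these markers in its group, 142 TPM, and the lowest *Neat1*, 2.20 TPM. ∆*Firre* mouse 8 had the highest sum in its group, 4291 TPM, with *Neat1* at 18.04 TPM, below the 20.6 TPM of mouse 9.

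The ratio of the neighboring genes within a library does not depend on its scaling. *Neat1* was at 15.6%, 9.47%, 5.58%, and 8.82% of *Malat1* TPM in WT mice 6, 8, 10, and 11. In ∆*Firre* mice 8, 9, 11, and 12 it was at 9.19%, 8.53%, 7.91%, and 7.69%. In *Firre* rescue mice 1 to 4 it was at 3.48%, 3.53%, 3.17%, and 3.62%, the narrowest spread of the 3 groups although *Malat1* itself ranged from 62.2 to 211 TPM there. All *Firre* rescue libraries were below all others. The log2 ratio was lower by 1.27 in *Firre* rescue than in ∆*Firre* and by 1.42 than in WT (two-sided exact permutation p = 0.0286 each, raw values of 3 comparisons chosen after seeing the data, and the smallest p possible). The difference between ∆*Firre* and WT was -0.15 (exact permutation p = 0.629). Adjusted over the 3 comparisons by the Benjamini-Hochberg method, the p-values were 0.0429, 0.0429, and 0.629.

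**Figure D3:**
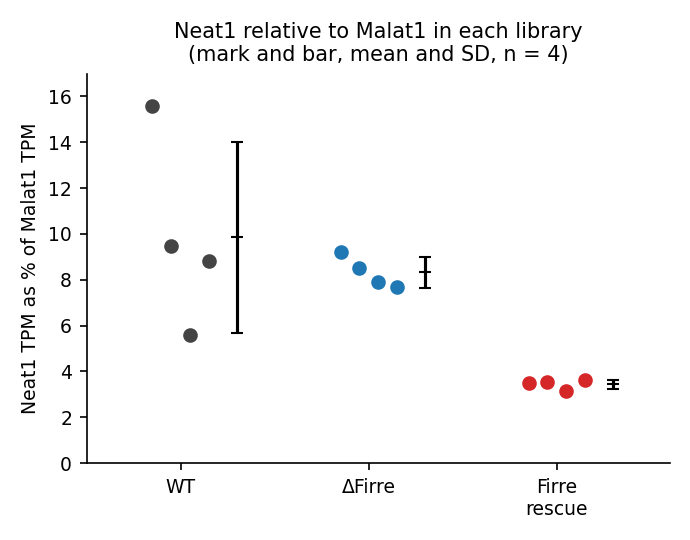
*Neat1* TPM as a percentage of *Malat1* TPM (vertical axis, from 0) in each library by group; points are libraries and the mark with bar gives the mean and SD (n = 4). *Firre* rescue libraries lie between 3.17% and 3.62%, below the lowest library of the other groups at 5.58%.

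Within *Firre* rescue, mice 2 and 4 had the highest *Firre* levels, at 135 and 174 TPM, and the lowest *Malat1* and *Neat1* levels. Mice 1 and 3 had *Firre* at 59.9 and 63.0 TPM and higher *Malat1* and *Neat1* levels. The libraries are too few for a correlation, and this order was noticed after the values had been seen.

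The protein-coding genes around *Malat1* and *Neat1* showed no shared fall in *Firre* rescue. Of 17 other tested genes within 200 kb of the pair, 0 were called lower with limma between *Firre* rescue and ∆*Firre* and 7 were called higher (of all genes tested, 19.3% lower and 8.58% higher), with a median of 0.37 against -0.16 over all genes. Against WT, 0 were called lower and 1 higher (of all genes tested, 19.4% lower and 4.82% higher), with a median of 0.01 against -0.21 over all genes. At an unadjusted p under 0.05 and with limma-voom, 0 were also lower in both comparisons. In ∆*Firre* against WT, 0 of the 17 were called with limma or limma-voom, while 6 had an unadjusted p under 0.05, all lower in ∆*Firre*, as had 767 of all 14479 genes in either direction. *Frmd8*, the nearest tested gene on the *Neat1* side, had a log2 fold change of 0.42 against ∆*Firre* (limma adjusted p = 0.0403). Of the 17, *Tigd3* was lowest at -0.58 and did not pass the test (limma adjusted p = 0.205). The window was chosen after the members' values had been seen.

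Other lncRNAs were read for comparison. The counts of this and the following lists stand beside 19.3% of all genes called lower and 8.58% called higher against ∆*Firre*, and 19.4% lower and 4.82% higher against WT. Of 18 other snoRNA host lncRNAs listed, 10 were matched and 9 tested, and between *Firre* rescue and ∆*Firre* 3 were called lower (33.3%, against 19.3% of all genes) and 0 higher (median -0.24). *Snhg20* went from 22.3 ± 2.95 to 7.96 ± 4.11 TPM (SD, n = 4 each), with a log2 fold change of -1.51 (limma adjusted p = 0.00692). *Mir17hg*, which hosts the miR-17 to miR-92 microRNAs rather than snoRNAs, went from 53.9 ± 10.95 to 23.9 ± 8.38 TPM, a log2 fold change of -1.18 (limma adjusted p = 0.00233). Both were also called lower against WT, as was *Snhg17*, and *Epb41l4aos* was called higher against WT at 0.47 (limma adjusted p = 0.0576). *Zfas1*, the host of highest mean level on this list, was at 127 ± 14.8, 137 ± 10.6, and 141 ± 7.78 TPM in WT, ∆*Firre*, and *Firre* rescue (SD, n = 4 each) and was not called. In ∆*Firre* against WT, 0 of the 9 were called with limma or limma-voom, and 0 had an unadjusted p under 0.05.

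Of 25 other named lncRNAs, 12 were matched and 6 tested, and 3 were called lower and 0 higher in *Firre* rescue against ∆*Firre* (median -0.52), with the same counts against WT, where 19.3% and 19.4% of all genes were lower. They were *Mir17hg*, which stands on both lists, *Oip5os1*, and *Tug1*. *Oip5os1*, a conserved RNA also called Cyrano, went from 167 ± 14.8 TPM in ∆*Firre* to 109 ± 9.27 TPM (SD, n = 4 each), with a log2 fold change of -0.61 (limma adjusted p = 0.00203). *Tug1* went from 90.1 ± 4.31 to 67.3 ± 11.5 TPM, a log2 fold change of -0.43 (limma adjusted p = 0.0198). Of the 306 tested genes that RefSeq types as lncRNA, 74 (24.2%, against 19.3% of all genes) were called lower and 5 higher between *Firre* rescue and ∆*Firre*, with a median of -0.54 against -0.16 over all genes. Under quantile normalization the number lower was 38 (12.4%), close to the 12% of all genes lower under that setting, so that the larger share did not hold there. The number higher was 16 there (5.23%, against 13.8% of all genes). The number lower was 49 (16%) under the correction for exon GC content, where 9.77% of all genes were lower, and 49 without ∆*Firre* mouse 8, where 14.6% were. Over all alternatives it was 38 to 82, with 6 of them moving it by more than 1.5 times. Against WT, 62 of the 306 (20.3%, close to the 19.4% of all genes) were called lower and 7 higher (median -0.40, against -0.21 over all genes), and 25 (8.17%, close to the 8.36% of all genes) were lower under quantile normalization. Against WT the number was 25 to 75 over all alternatives, with 5 of them moving it by more than 1.5 times.

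**Figure D4:**
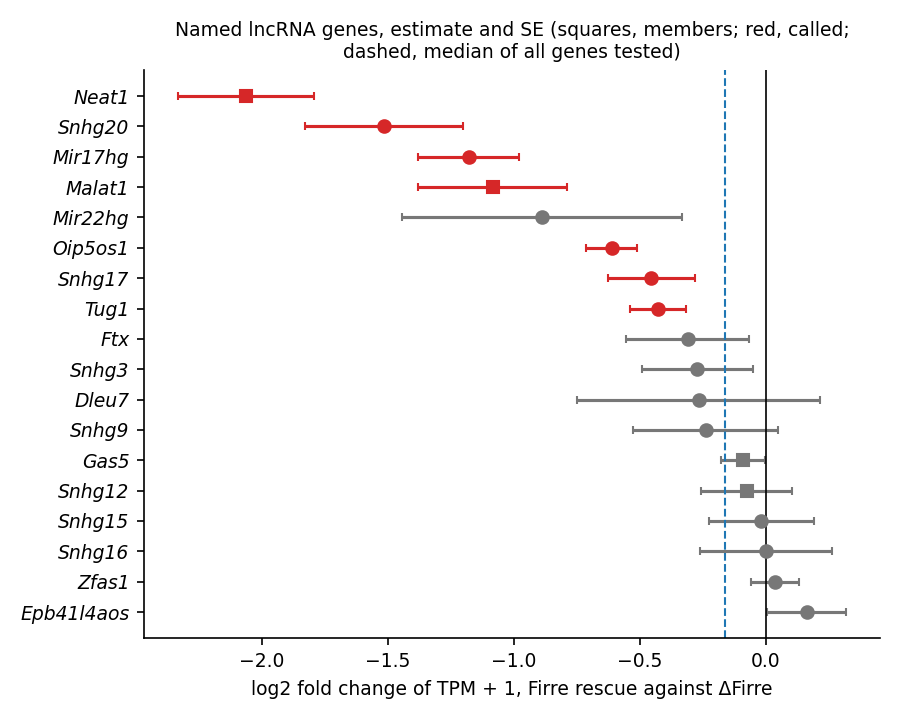
Difference in log2(TPM + 1) between *Firre* rescue and ∆*Firre* (horizontal axis) with its standard error for the tested members (squares) and the tested genes of both comparison lists of lncRNAs (circles); red is called, and the dashed line is the median of all genes tested. *Neat1* at -2.06 is the lowest, and *Gas5* and *Snhg12* lie near 0 beside *Snhg15*, *Snhg16*, and *Zfas1*.

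Proteins that work with these RNAs were on further lists. Of 15 paraspeckle proteins, all were tested. In *Firre* rescue against ∆*Firre*, 7 were called lower (46.7%, against 19.3% of all genes) and 3 higher (20%, against 8.58%), with a median of -0.21. With the correction for exon GC content 3 were lower (20%, against 9.77% of all genes there) and 1 higher (6.67%, close to the 5.43% of all genes). *Hnrnph3*, an RNA-binding protein, had a log2 fold change of -0.67 (limma adjusted p = 0.0218). *Smarca4*, the ATPase of the SWI/SNF complex, rose by 0.89 (limma adjusted p = 0.00258), and *Rbm14* by 0.60 (limma adjusted p = 0.0554). Against WT, 8 of the 15 were called lower (53.3%, against 19.4% of all genes) and 1, *Smarca4*, higher, and 4 were lower with the median ratio between libraries (26.7%, against 8.59% of all genes with that scaling).

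Of 12 nuclear speckle proteins, 6 were called lower (19.3% of all genes were) and 1 higher (8.33%, close to the 8.58% of all genes) against ∆*Firre* (median -0.25), and 2 were lower with the correction for exon GC content (16.7%, against 9.77% of all genes there). *Rbm25*, a splicing regulator, fell by 0.78 (limma adjusted p = 0.00613), and *Srsf5*, an SR splicing factor, fell by 0.67 (limma adjusted p = 0.0023). *Rnps1*, part of the exon junction complex, rose by 0.28 (limma adjusted p = 0.0847). This call was lost, with 0 of the list higher, under the correction for exon GC content (5.43% of all genes higher). It was also lost without the filter on low values (3.77%) and with only the groups compared (7.63%). Against WT, 7 of the 12 were called lower (58.3%, against 19.4% of all genes) and 0 higher, also 0 at an unadjusted p under 0.05, while limma-voom called 1 higher and 3 lower (8.46% and 10.1% of all genes).

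Of 13 nonsense-mediated decay factors, which act on the spliced RNAs of snoRNA hosts, 4 were called higher (30.8%, against 8.58% of all genes) and 2 lower (15.4%, near the 19.3% of all genes) against ∆*Firre* (median 0.11). *Upf3a* rose by 0.74 (limma adjusted p = 0.000868) and *Eif4a3* by 0.43 (limma adjusted p = 0.0417), while *Upf3b* fell by 0.71 (limma adjusted p = 0.00488) and *Upf2* by 0.47 (limma adjusted p = 0.0545). The number lower was 1 without ∆*Firre* mouse 11 or 12 or *Firre* rescue mouse 2 or 4 (13.7% to 16.1% of all genes), and with the correction for exon GC content (9.77%). Against WT, 2, *Upf3b* and *Upf2*, were called lower and 0 higher, while limma-voom called 2 higher (15.4%, against 8.46% of all genes). Of 13 snoRNP proteins, which bind the snoRNAs that *Gas5* and *Snhg12* release, 2 were called higher and 2 lower against ∆*Firre* (15.4% each, with 8.58% of all genes higher and 19.3% lower; median 0.19), so that the number lower was no more than the background. *Ruvbl2* rose by 0.76 (limma adjusted p = 0.00872) and *Pih1d1* by 0.44 (limma adjusted p = 0.0497), both in the complex that assembles snoRNPs. *Dkc1*, the pseudouridine synthase, fell by 0.49 (limma adjusted p = 0.0144) and *Nop58*, a box C/D core protein, by 0.39 (limma adjusted p = 0.0363). Without *Firre* rescue mouse 1, 4 were lower (30.8%, against 17.3% of all genes), and with the correction for exon GC content 0 were (9.77% of all genes). With limma-voom 7 were called higher (53.8%, against 13.2% of all genes). Against WT, 1 was called higher and 3 lower. Of 19 snoRNAs of *Gas5*, *Snhg1*, and *Snhg12* listed, 6 were matched and all 6 were listed at 0 in every library.

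Of 12 tested genes of the exosome and nuclear RNA decay, 3 were called lower and 0 higher against ∆*Firre* (median -0.20), where 19.3% of all genes were lower, near the share of the list. *Zfc3h1*, which links polyadenylated nuclear RNA to the exosome, went from 73.4 ± 7.34 to 30.4 ± 7.21 TPM (SD, n = 4 each), with a log2 fold change of -1.26 (limma adjusted p = 0.000206). *Pabpn1*, the nuclear poly(A)-binding protein, fell by 1.04 (limma adjusted p = 0.00271). Against WT, the 2 called lower (16.7%, near the 19.4% of all genes) were these same genes and 0 were higher.

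Lists for the imprinted and unmatched members were read as well. Of 5 matched genes of the *Meg3* cluster, 2 were tested and 0 called in any comparison. The tested ones were *Wdr25*, at 3.12 ± 1.07, 2.45 ± 0.91, and 1.998 ± 0.89 TPM, and *Begain*, at 1.31 ± 0.62, 0.87 ± 0.43, and 1.36 ± 1.32 TPM in WT, ∆*Firre*, and *Firre* rescue (SD, n = 4 each). Of 6 tested genes of the *Kcnq1ot1* cluster, 1, *Tssc4*, was called higher in *Firre* rescue against ∆*Firre* at 0.52 (limma adjusted p = 0.0861) and 0 against WT. With the correction for exon GC content, and without the filter on low values, 0 of the cluster were called higher against ∆*Firre* (5.43% and 3.77% of all genes). *Nap1l4* and *Cd81*, the cluster genes of highest mean level, were at 215 ± 10.7 and 97.0 ± 13.6 TPM in WT (SD, n = 4). Of 11 neighbors of *Dleu2* and targets of its miR-15 and miR-16 microRNAs, 4 were called lower (36.4%, against 19.3% of all genes) and 1 higher (9.09%, close to the 8.58% of all genes) against ∆*Firre* (median -0.43). *Bcl2*, the survival factor, fell by 0.92 (limma adjusted p = 0.000907) and *Ccnd1* by 0.70 (limma adjusted p = 0.0248), while *Ccnd3*, another D-type cyclin, rose by 0.98 (limma adjusted p = 0.000585). Against WT, 5 were lower and 1 higher, and 3 were lower with the median ratio between libraries (27.3%, against 8.59% of all genes with that scaling). In ∆*Firre* against WT, 0 of the 99 tested entries of all the lists of lncRNAs, proteins, and clusters were called with limma or limma-voom, while 5 had an unadjusted p under 0.05, close to the share over all genes (767 of 14479).

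As a description, the genes most like each member were found from Pearson's r of log2(TPM + 1) over the 12 libraries after the group means were subtracted. For *Malat1* they were *Akap8* (r = 0.974) and *Arfgef1* (r = 0.971), and for *Neat1* *Add3* (r = 0.975) and *Afdn* (r = 0.955). For *Gas5* they were *Npm1* (r = 0.938) and *Zc3h15* (r = 0.918), and for *Snhg12* *Psmd1* (r = 0.923) and *Gm9888* (r = 0.920). Among the members, r was 0.670 for *Malat1* with *Neat1* and 0.628 for *Gas5* with *Snhg12*. It was 0.562 for *Malat1* with *Gas5*, and 0.220, -0.07, and -0.23 for *Malat1* with *Snhg12*, *Neat1* with *Gas5*, and *Neat1* with *Snhg12*. The points share library depth and composition, and the best of 13086 named genes is high by selection.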

How the data were processed

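One RNA-seq library per mouse was made from CLPs of 4 WT, 4 ∆*Firre*, and 4 *Firre* rescue mice. Per the submitters' processing notes and the methods of the study, reads were trimmed with cutadapt, mapped to mm10 with TopHat2 2.1.1, and counted per Gencode gene with featureCounts. The authors deposited TPM for 47643 genes by Ensembl identifier; the strand and multi-mapping settings are not given in the sources used here, so reads of overlapping or antisense genes cannot be told apart. Symbols were joined by identifier for 32799 genes, and positions and gene types came from RefSeq on GRCm38.p6. Every library column was used.

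The members and the lists beside them were chosen with earlier results of these data known. Every member was reported, and from each list the called genes that rose most and those that fell most, 2 each, or where none was called up to 2 of highest mean TPM. Some genes are not reported here. Further genes were named after their values were seen (*Snhg17*, *Tug1*, and the genes beside *Malat1* and *Neat1*).

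Genes with a mean of at least 1 TPM, 14479 in number, were fitted as log2(TPM + 1) with limma 3.58.1 in R 4.3.3 (trend, 3 groups in one fit) and called where the two-sided p, adjusted by Benjamini-Hochberg over all of them, was at most 0.1. Exact permutation tests over 70 labelings were run in Python 3.11.15 with scipy 1.17.1. Whole reads were recovered from the spacing of TPM (98.4% of values above 0 within 0.1 read) for depth and for limma-voom only; 1 read on 1 kb was worth 0.0897 to 0.284 TPM. Reads are not independent molecules, so intervals on reads and limits of 3 reads cover counting error only. Exon GC content came from an older annotation joined by identifier (90.4% of genes tested). On simulated data with 200 of 14479 genes changed 2-fold, the fit recovered 155, 150, and 153 in the 3 comparisons, with 14, 17, and 13 false calls. The simulated noise was independent between genes, and the changed genes were drawn only from those of higher level. These rates therefore do not carry over to low genes or to shifts shared by many genes.

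As alternatives served pseudocounts of 0.1 and 5, dropping the filter or raising it to 5 TPM, median ratio and quantile scaling, TPM without dominant genes, only the groups compared, a robust fit, an adjusted p of 0.05, limma-voom, exon GC correction with a spline of 4 degrees of freedom, both blocks, and each library left out. A correction for exon length and the ratio of *Neat1* to *Malat1* were chosen after seeing the data. The 3 members without a match were left out.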

Additional observations from a re-analysis of the deposited data

Results flagged for a closer look

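In 20 sets of 4 libraries (each matched member, *Firre* where above 0, and the ratio of *Neat1* to *Malat1*, in each group), a library stood apart from the other 3 in 5 sets by Dixon's criterion, which chance alone meets in about 1 set of 20. That rate does not hold for *Meg3*, which gave 3 of the 5, since with most libraries at or near 0 reads any library with a few reads stands apart. In log2(TPM + 1), *Neat1* was at 5.05 in WT mouse 6 against 4.18 to 4.30 in the others. *Snhg12* was at 6.22 in ∆*Firre* mouse 9 against 6.69 to 6.73. *Meg3* stood apart in every group, at 0.31 in WT mouse 10 against 0, at 0.11 in ∆*Firre* mouse 8 against at most 0.02, and at 0.49 in *Firre* rescue mouse 3 against at most 0.03. The *Meg3* values rest on 25, 7, and 78 recovered reads, and *Firre* rescue mouse 3 is also the library with the highest *Malat1* level of its group.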

How the results depend on the processing

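*Malat1* and *Neat1* were called lower in *Firre* rescue, and no other tested member was called in any comparison, under all alternatives run. Against ∆*Firre*, *Malat1* ranged from -1.09 to -0.84 and *Neat1* from -2.33 to -1.42, and with each library left out from -1.42 to -0.84 (limma adjusted p 0.00153 to 0.072) and from -2.31 to -1.88. Against WT these ranges were -1.11 to -0.91 and -2.49 to -1.56, and with each library left out -1.44 to -0.85 (limma adjusted p 0.00166 to 0.0767) and -2.47 to -2.02. DESeq2 on recovered reads was not run, and a block by library range was not possible for *Firre* rescue.

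Uncalled differences near 0 changed sign, and the cause was not tested. Between ∆*Firre* and WT, *Malat1* was 0.054 with the median ratio, 0.026 with quantile normalization, 0.033 without dominant genes, 0.043 with limma-voom, and 0.0058 with the correction for exon length, and *Snhg12* was -0.014 with the correction for exon GC content. Between *Firre* rescue and ∆*Firre*, *Gas5* and *Snhg12* were 0.032 and 0.045 with the median ratio, 0.032 and 0.054 with limma-voom, and 0.13 and 0.057 with the correction for exon GC content. Between *Firre* rescue and WT, *Snhg12* was 0.17 with the median ratio, 0.11 with quantile normalization, 0.065 without dominant genes, 0.18 with limma-voom, and 0.043 with the correction for exon GC content.

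With each library left out, *Malat1* ranged from -0.12 to 0.15, *Neat1* from -0.25 to 0.043, *Snhg12* from -0.080 to 0.17, and the ratio of *Neat1* to *Malat1* from -0.39 to 0.10 (without WT mouse 6) between ∆*Firre* and WT. *Snhg12* ranged from -0.20 to 0.048 between *Firre* rescue and ∆*Firre* and from -0.16 to 0.10 against WT, and *Gas5* from -0.040 to 0.086 against WT. *Meg3* ranged from -0.071 to 0.031, from -0.014 to 0.15, and from -0.059 to 0.14 in the comparisons of ∆*Firre* with WT, *Firre* rescue with ∆*Firre*, and *Firre* rescue with WT. The ratio ranged from -1.31 to -1.22 between *Firre* rescue and ∆*Firre* and from -1.66 to -1.17 against WT, each with the smallest exact permutation p that 3 libraries against 4 allow, 0.0571, which says nothing about stability.

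Mouse numbers 8 and 11, shared by WT and ∆*Firre* libraries, did not pair them (r of deviations -0.03 and -0.04). With mouse number as a replicate block, on these 4 libraries, *Malat1* was 0.13, *Neat1* 0.030, *Gas5* 0.14, and *Snhg12* 0.07, the same as without the block, and 19 genes of all tested were called against 17 without the block and 3 with all libraries. Over all genes, 0 to 19 were called between ∆*Firre* and WT. The correction for exon GC content lowered the calls between *Firre* rescue and ∆*Firre* from 3798 to 1990 of the same 13086 genes. Depth limits *Meg3*, while the other members had at least 509 reads in every library.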
